A study of Mus musculus with 2 samples.

Results

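The Mir379 to Mir410 cluster is a run of microRNA genes in the imprinted Dlk1-Dio3 domain of mouse chromosome 12, and its levels were read here from heart tissue. The genes were chosen by name and place: 39 listed microRNA genes were all found by name in GENCODE M21, and 38 of them lie between Mir379 and Mir410 (mm10 chromosome 12, 109709060 to 109743795, a span of 34736 bases). These 38 are the members, of 2202 microRNA genes counted. Mir3072 is on the list but starts 4083 bases past Mir410 and was left out. The rule itself uses names and positions and no measured value.

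MicroRNA libraries of RNA under 30 bases were made from the hearts of female B6CASTF1/J mice at 14 days of age. There was 1 group of 2 biological replicates, so no treatment, genotype or age was compared, and the data give levels at this age and the distance between these libraries. The labels name 3 females for replicate 1 and 1 for replicate 2, and do not say whether the 3 were pooled. The age is that of the age field, as a further label counts in months. B6CASTF1/J mice are hybrids of the strains C57BL/6J and CAST/EiJ, and the counts do not separate the parental alleles.

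MicroRNAs are cut from hairpins in longer transcripts, first in the nucleus and then in the cytoplasm, and a strand of the resulting duplex guides the silencing complex to messenger RNAs through its seed, bases 2 to 8. The Mir379 to Mir410 hairpins are expressed from the maternally inherited chromosome and are processed from long noncoding transcripts, of which Mirg is the annotated host at the far end of the cluster. They are best known from brain, where Mir134 limits the growth of dendritic spines, and from the embryo and placenta. Mice that lack the cluster have been described with a failure of metabolic adaptation at birth. In the heart, miR-410 and miR-495 have been described as promoting division of cardiomyocytes.

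All but 1 of the members lie on the plus strand. The 25 members from Mir379 to Mir544 have no annotated non-microRNA host gene on their strand, whereas the 13 from Mir382 to Mir410 lie inside Mirg (109729764 to 109749460), 8 of them overlapping an annotated exon and 5 in introns. The hairpins are 49 to 121 bases long, with a median of 79, and their GC content runs from 29.1% to 64.6% with a median of 43.5%. The median over all 2202 hairpins is 50.8% GC. All 38 members matched the RefSeq table (GRCm38.p6), which holds 71 of their mature sequences, both arms for 33 members and 1 arm for 5.

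The mature sequences of the 5 most abundant members are shown because they carry most of the cluster's reads. Each is written 5′ to 3′ with the seed in capitals. The deposited counts are per gene, so which arm a read came from is not known.
miR-379-5p: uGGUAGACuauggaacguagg
miR-379-3p: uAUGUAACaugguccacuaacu
miR-411-5p: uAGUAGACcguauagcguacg
miR-411-3p: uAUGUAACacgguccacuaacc
miR-541-5p: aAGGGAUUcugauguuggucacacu
miR-541-3p: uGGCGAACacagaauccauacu
miR-382-5p: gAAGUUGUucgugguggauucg
miR-382-3p: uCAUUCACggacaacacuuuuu
miR-154-5p: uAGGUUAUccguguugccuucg
miR-154-3p: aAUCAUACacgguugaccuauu

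The 3p arms of Mir379 and Mir411 have the same seed and are identical at 20 of 22 bases, differing by U10C and U22C when positions are counted from the 5′ end of miR-379-3p. Their 5p arms differ inside the seed by G2A and are identical at 14 of 21 bases. Among the 71 mature sequences there were 64 distinct seeds, of which 7 were shared by 2 members each. Another of these pairs joins the most abundant member to a rarer one, as miR-1193-5p carries the seed of miR-379-5p although only 10 of 20 compared bases are the same.
miR-1193-5p: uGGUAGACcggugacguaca

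Of the 64 seeds, 54 occurred in no mature sequence outside the cluster, out of 1679 mature sequences in the table. Among the others, miR-329-3p shares its seed with miR-362-3p and miR-377-5p shares its own with miR-672-5p. Some letters recurred among members. GGUU stood within the first 7 bases of 13 of the cluster's 36 5p sequences (36.1%), against 28 of all 697 5p sequences (4.02%), and ACACGG stood in 5 of 34 3p sequences (14.7%), against 6 of all 709 (0.846%). The members are included in the totals, only the mature strand was searched, and these letters were chosen after the sequences were seen.

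Several members have near-copies, and the sequences below are shown because they bear on how reads can be assigned. Mir376a, Mir376b and Mir376c belong to a family whose hairpins are known targets of adenosine-to-inosine RNA editing. The 3p arms of Mir376a and Mir376b differ by G4A, A13C and G20U, the first of them in the seed, and the 5p arms of Mir376b and Mir376c by G19U only.
miR-376a-3p: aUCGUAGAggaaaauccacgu
miR-376b-3p: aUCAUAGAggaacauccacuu
miR-376b-5p: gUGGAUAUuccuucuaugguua
miR-376c-5p: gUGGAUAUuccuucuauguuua
The 3p arms of Mir381 and Mir300 are identical at 19 of 22 bases and differ in the seed by A4G.
miR-381-3p: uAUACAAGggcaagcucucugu
miR-300-3p: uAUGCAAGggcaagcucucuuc
Mir299a and Mir299b overlap on opposite strands. The whole 21 bases of miR-299b-5p are found in miR-299a-5p from its base 2 onward, so the seeds are shifted by a base.
miR-299a-5p: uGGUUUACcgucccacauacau
miR-299b-5p: gGUUUACCgucccacauacau

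Own-strand reads of microRNA genes numbered 5237062 in replicate 1 and 3026501 in replicate 2, and every level is a count per 1000000 of such reads (CPM). Mature microRNAs are of similar length, so levels were compared between genes with no scaling to length. How evenly the libraries captured different microRNAs was not measured, so such comparisons are of reads and not of molecules. Reads that map to several places were 41.1% and 39.9% of all reads and are counted for no gene, so members with near-copies can be undercounted. Each mean ± SD is over both libraries (n = 2), and intervals are exact 95% Clopper-Pearson intervals. They and the floors cover counting error only, as no molecular identifiers separate repeated copies of a molecule. The labelled tissue was checked against marker genes. The myosin-hosted cardiomyocyte genes Mir208a (998 ± 506 CPM), Mir208b (308 ± 28.6 CPM) and Mir499 (2984 ± 704 CPM) were present, with Mir1a-1, Mir1a-2, Mir133a-1, Mir133a-2 and Mir133b all under 30 CPM. Among 9 neuronal markers, 5 had 0 reads in both libraries, namely Mir9-1, Mir9-2 and the 3 genes of Mir124a. These 5 and Mir9-3 have near-identical copies, as do the Mir1a, Mir133a and Mir128 genes by their names, so unique reads can miss them. The low counts of the Mir1a and Mir133a genes thus do not show that these microRNAs were scarce. Of the other 4 neuronal markers, Mir128-1 stood at 161 ± 104 CPM and Mir137 at 75.2 ± 7.22 CPM. Mir128-2 stood at 25.4 ± 19.5 CPM and Mir9-3 at 1.56 ± 0.592 CPM.

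The cluster took 0.731% of counted reads in replicate 1 (interval 0.724 to 0.738) and 0.699% in replicate 2 (0.689 to 0.708), or 38280 and 21142 reads. The mean was 0.715% ± 0.0229. In bulk tissue, fewer cells of a type and less RNA per cell cannot be told apart. Detected members, those whose count reached 10 reads in each library, numbered 32 of 38, against 15.2% of all microRNA genes. The other 6 were Mir299b, Mir758, Mir654 and Mir453, with 0 reads in both libraries, Mir1197 with 1 read in replicate 1 and 0 in replicate 2, and Mir544 with 0 and 1. The floor used for a member at 0 is that of 3 reads, 0.573 CPM in replicate 1 or 0.991 CPM in replicate 2, and limits uniquely mapped reads only. The lowest detected member was Mir410, at 30 and 11 reads.

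**Figure D1:**
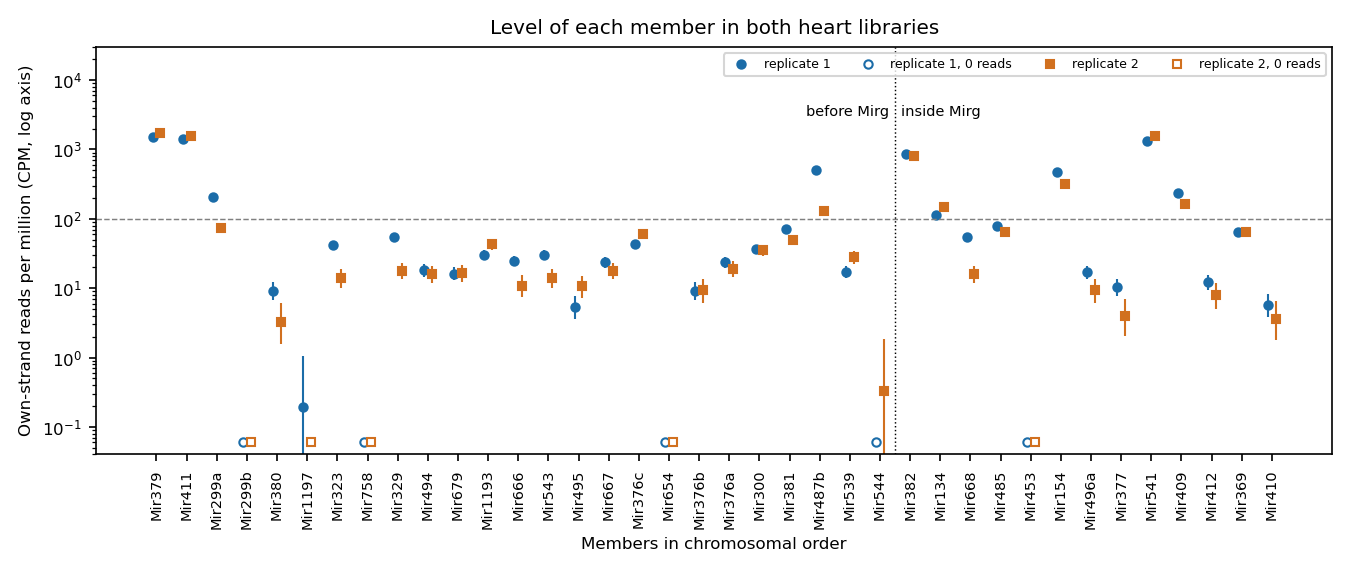
Own-strand CPM of each of the 38 members (log axis) in chromosomal order, with exact 95% counting intervals; circles are replicate 1, squares replicate 2, open symbols at the bottom edge mark 0 reads, the dashed line is 100 CPM and the dotted line the start of Mirg. Mir379, Mir411 and Mir541 stand between 1315 and 1730 CPM in both libraries, and 29 of 38 members have a mean under 100 CPM.

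Levels within the cluster were very uneven. Of the members, 9 had a mean of at least 100 CPM, against 7.08% of all genes, and 23 detected members lay between 4.68 and 72.0 CPM, with a median of 21.2 CPM. The 3 highest took 57.8% of the cluster's reads in replicate 1 and 69.0% in replicate 2, the 5 highest took 76.0% and 85.0%, and the 9 highest took 90.5% and 92.3%. The 23 lower detected members together took 9.53% and 7.67%.

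Mir379, the first hairpin of the cluster (109709060 to 109709125), had 7881 reads in replicate 1 and 5235 in replicate 2, or 1505 and 1730 CPM (1617 ± 159). It ranked 55 among all genes. Mir411, 1115 bases further on (109710175 to 109710256), had 7357 and 4694 reads, or 1405 and 1551 CPM (1478 ± 103). Mir541 (109742409 to 109742498), in an intron of Mirg near the other end of the cluster and described as restraining cardiomyocyte hypertrophy, had 6889 and 4655 reads, or 1315 and 1538 CPM (1427 ± 157). Neighbours in this order differed by less than the larger of their SDs, and the order Mir379, Mir411, Mir541 was the same in both libraries. The ratio of Mir379 to Mir411 reads was 1.07 (1.04 to 1.11) in replicate 1 and 1.12 (1.07 to 1.16) in replicate 2.

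Mir382 (109733771 to 109733846), which overlaps an exon of Mirg, followed at 4513 and 2421 reads, or 862 and 800 CPM (831 ± 43.7). Mir154 (109738433 to 109738498), in a Mirg intron and the namesake of a family of related hairpins in the cluster, had 2467 and 958 reads, or 471 and 317 CPM (394 ± 109). Mir487b (109727333 to 109727414), outside Mirg, had 2632 reads in replicate 1 and only 392 in replicate 2, or 503 and 130 CPM (316 ± 264). It thus ranked above Mir154 in replicate 1 and below it in replicate 2. Mir382 stood apart from the members above and below it by more than their SDs.

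Mir409 (109743158 to 109743236), in a Mirg intron, had 1221 and 491 reads, or 233 and 162 CPM (198 ± 50.1). Mir299a (109710638 to 109710700) had 1067 and 224 reads, or 204 and 74.0 CPM (139 ± 91.7). Its hairpin shares 21 bases with that of Mir299b on the other strand, so its level is uncertain. Mir134 (109734139 to 109734209), the dendritic microRNA named above, overlaps an exon of Mirg and had 603 and 450 reads, or 115 and 149 CPM (132 ± 23.7). The means of Mir299a and Mir134 differed by less than the spread of either, and their order was reversed between the libraries. From Mir154 down to Mir134, each member differed from the next in order by less than the larger SD.

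**Figure D2:**
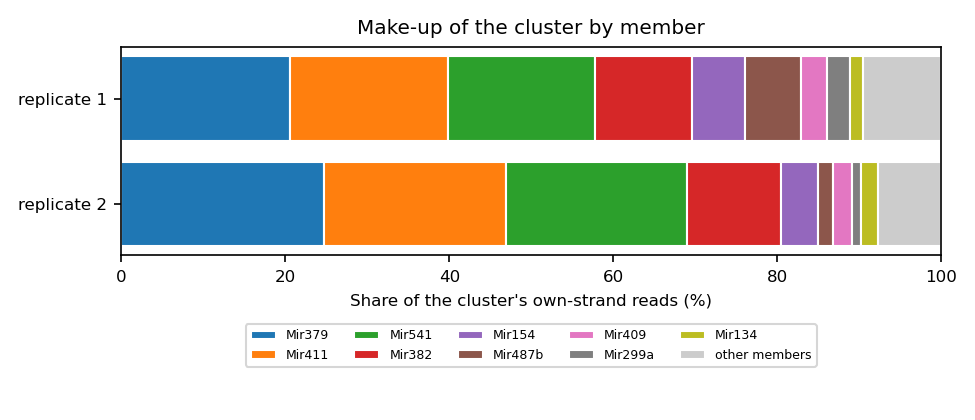
Share of the cluster's own-strand reads (%, from 0 to 100) taken by each of the 9 highest members and by all other members, in each library. Mir379, Mir411 and Mir541 together fill 57.8% of replicate 1 and 69.0% of replicate 2, and the band of Mir487b is wider in replicate 1.

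The miRNAs described in cardiomyocyte division were among the rarest members counted. Mir495 (109718754 to 109718816) had 28 and 32 reads, or 5.35 and 10.6 CPM (7.96 ± 3.70), and Mir410 (109743715 to 109743795) had 30 and 11 reads, or 5.73 and 3.63 CPM (4.68 ± 1.48). These lie above the floor for a count of 0 in both libraries. The 5 highest members under 100 CPM were Mir485 (72.0 ± 9.37 CPM), Mir369 (64.3 ± 0.697 CPM), Mir381 (60.4 ± 15.3 CPM), Mir376c (52.3 ± 12.1 CPM) and Mir1193 (36.5 ± 9.17 CPM). Mir1193, which shares the 5p seed printed above with Mir379, had 157 and 130 reads against the 7881 and 5235 of Mir379.

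Near-copies differed in level as well. Mir376c had 229 and 184 reads, Mir376b 48 and 28, and Mir376a 123 and 57, so that Mir376c was counted 4.77 times as often as Mir376b in replicate 1 (3.48 to 6.66) and 6.57 times in replicate 2 (4.40 to 10.2). The hairpins of Mir376b and Mir376c share a stretch of 31 bases, and that of Mir376b shares 20 bases with Mir487b, so these levels are uncertain. The hairpins of Mir411 and Mir758 share 21 bases, and Mir758 had 0 reads in both libraries. Neither mature sequence of Mir758 lies whole within another annotated hairpin. Loss of its reads to several mapping places was not tested. Mir381 had 373 and 150 reads against 192 and 106 for Mir300, a ratio of 1.94 (1.63 to 2.32) and 1.42 (1.10 to 1.83).

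Levels showed no clear order along the cluster. Across the 32 detected members, Spearman's rho of the mean level with distance from Mir379 was -0.04 and Pearson's r of log2 level with distance was 0.01, as descriptions over genes of the same 2 libraries. The rho with hairpin GC content was 0.08 and that with folding energy per base 0.07. The members before Mirg took 0.396% ± 0.0156 of counted reads and those inside it 0.319% ± 0.0073, and the ratio of these sums was 1.26 (1.23 to 1.28) in replicate 1 and 1.23 (1.19 to 1.26) in replicate 2. Counting intervals of this ratio overlapped between the libraries.

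Differences between the libraries were tested gene by gene with an exact two-sided binomial test on TMM-scaled library sizes, with Benjamini-Hochberg adjustment over all 430 genes with at least 10 reads in sum. This test compares these 2 libraries beyond counting error and compares no conditions. Of the 32 members tested, 21 were called, where 55.3% of all genes tested were called. Of these 21, 13 were higher in replicate 1 (27.9% of all genes) and 8 were lower (27.4% of all genes). The members' median log2 difference was 0.22, against -0.05 over all genes tested, and their SD was 0.77 against 1.08. A spread between replicates was then assumed, not estimated, in edgeR's exact test. With its biological coefficient of variation set to 0.1, 11 members were called, 9 higher and 2 lower. Of all 430 genes, 28.6% were called at this setting, 67 higher and 56 lower. At 0.4, also assumed, 0 members were called, where 1.16% of all genes were. On simulated counts this setting called none of the changed genes, even at the largest change set. Its 0 calls thus do not show that members were equal between the libraries.

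**Figure D3:**
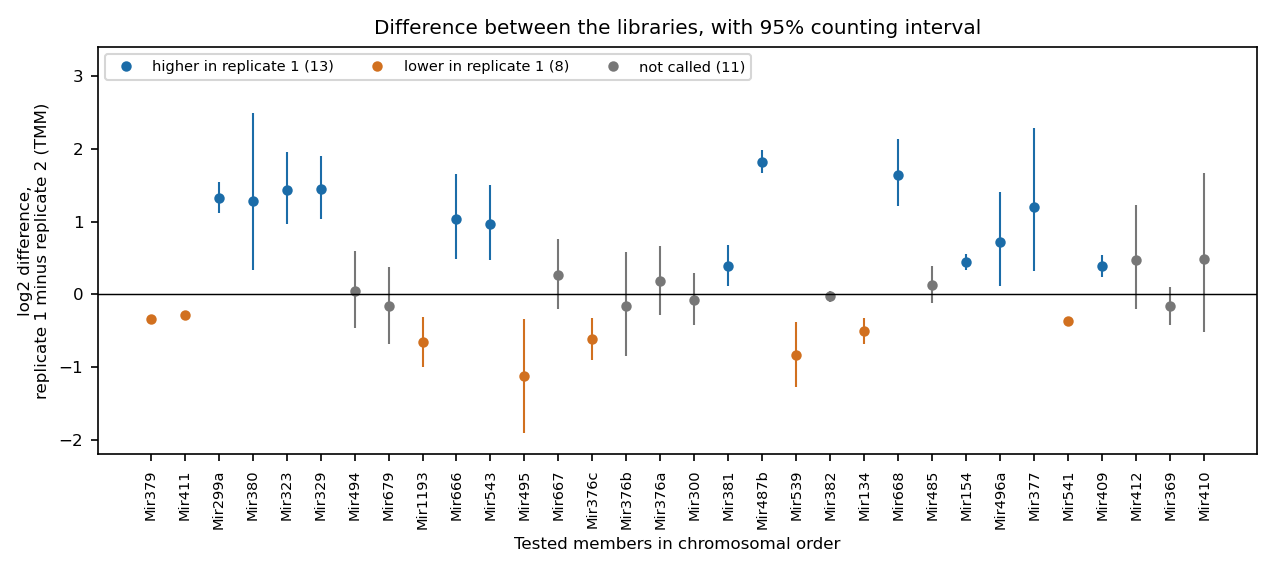
Log2 difference between the libraries (replicate 1 minus replicate 2, TMM-scaled) for the 32 tested members in chromosomal order, with 95% counting intervals; blue is higher, orange lower and grey not called in the exact binomial test. Members higher and lower in replicate 1 are found along the whole cluster, from 1.82 for Mir487b to -1.11 for Mir495.

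The members that were higher in replicate 1 by at least 2-fold were Mir487b, Mir668, Mir329, Mir323, Mir299a, Mir380, Mir377 and Mir666. With Mir495, the only member lower by at least 2-fold, they made 9 members called at that size, where 20.0% of all genes were. Mir380, Mir377, Mir666 and Mir495 had means under 100 reads and were named after their values were seen. Mir487b differed most, by 3.53-fold (log2 difference 1.82, interval 1.67 to 1.98, adjusted p = 3.95e-159 by the exact binomial test). Mir668, which overlaps an exon of Mirg, had 288 and 48 reads, or 55.0 and 15.9 CPM, a log2 difference of 1.65 (1.21 to 2.13). Mir329 had 282 and 54 reads, or 53.8 and 17.8 CPM (log2 1.45, 1.03 to 1.91), and Mir323 had 217 and 42 reads, or 41.4 and 13.9 CPM (log2 1.43, 0.96 to 1.96). Mir299a differed by a log2 of 1.32 (1.12 to 1.54). Each of these 5 was also called by edgeR's exact test at the assumed coefficient of 0.1. The adjusted p of that test was 1.20e-14 for Mir487b, 2.68e-07 for Mir668, 6.36e-06 for Mir329, 3.44e-05 for Mir323 and 1.58e-07 for Mir299a. None of the 5 was called at 0.4.

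The mature sequences of Mir487b, Mir668, Mir329, Mir323 and Mir299a that the RefSeq table holds are shown to let their seeds be compared. Of these, miR-299a-5p was printed further above. No seed was shared among them.
miR-487b-5p: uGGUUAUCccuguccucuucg
miR-668-5p: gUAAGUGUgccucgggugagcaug
miR-668-3p: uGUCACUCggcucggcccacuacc
miR-329-5p: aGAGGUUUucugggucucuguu
miR-329-3p: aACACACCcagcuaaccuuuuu
miR-323-5p: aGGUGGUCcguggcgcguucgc
miR-323-3p: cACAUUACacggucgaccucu
miR-299a-3p: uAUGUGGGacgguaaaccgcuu

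Of the 9 members with at least 100 CPM, Mir487b and Mir299a differed by over 2-fold, as given above, and the other 7 by less. Mir379 was lower in replicate 1 by a log2 of -0.34 (interval -0.39 to -0.28), Mir411 by -0.28 (-0.33 to -0.22) and Mir541 by -0.36 (-0.41 to -0.31), all called by the exact binomial test and none by edgeR's exact test at 0.1 (adjusted p = 0.232, 0.330 and 0.186). Mir382, at -0.03 (-0.10 to 0.04), was not called. Mir134 was lower by -0.50 (-0.68 to -0.32), while Mir154 was higher by 0.44 (0.33 to 0.55) and Mir409 by 0.39 (0.24 to 0.54), and edgeR's test at 0.1 called none of these 3. TMM moved all log2 differences by -0.13 relative to total counts. Relative to total counts, Mir382 was called higher (log2 0.11, adjusted p = 0.00657 by the exact binomial test), with DESeq2 size factors it stood at 0.01 and was not called, and each other tested member kept its call.

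Of the rarer members, named here after their values were seen, Mir1193 (log2 -0.65), Mir376c (-0.61), Mir539 (-0.83) and Mir495 (-1.11) were lower in replicate 1. Mir539, which has been studied in cardiomyocytes, had 90 and 84 reads, or 17.2 and 27.8 CPM. Mir539 and Mir495 were the lower members that edgeR's exact test at 0.1 also called (adjusted p = 0.0328 and 0.0446). Mir666 (log2 1.04), Mir543 (0.96), Mir381 (0.39), Mir496a (0.73), Mir377 (1.20) and Mir380 (1.28) were higher, with Mir380 resting on 48 and 10 reads and Mir377 on 54 and 12. The 11 members that were not called, Mir494, Mir679, Mir667, Mir376b, Mir376a, Mir300, Mir382, Mir485, Mir412, Mir369 and Mir410, differed by up to 1.40-fold. Mir369 at 63.8 and 64.8 CPM and Mir376b at 9.17 and 9.25 CPM were nearly equal in CPM.

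Some members that lie close together differed between the libraries in opposite directions. Mir411 and Mir299a start 463 bases apart, and the ratio of their reads was 6.90 (6.47 to 7.36) in replicate 1 and 21 (18.3 to 24.1) in replicate 2. Mir134 and Mir668 start 593 bases apart, and their ratio was 2.09 (1.82 to 2.42) against 9.38 (6.95 to 12.9). Mir1193 and Mir666 start 1414 bases apart, with a ratio of 1.21 (0.951 to 1.54) against 3.94 (2.67 to 5.96), and Mir543 and Mir495 start 1496 bases apart, with 5.61 (3.73 to 8.71) against 1.31 (0.809 to 2.15). In each of these 4 pairs the counting intervals of the libraries did not overlap. This was not particular to them. Of neighbours along the cluster with at least 100 CPM, only Mir379 and Mir411 had overlapping intervals (1.04 to 1.11 and 1.07 to 1.16). The first pair was picked from those neighbours. Of all genes tested, 55.3% were called by the exact binomial test, and the share over pairs of all genes was not computed. The last 3 of the 4 pairs were chosen after their values were seen. A ratio within a library does not depend on how the libraries are scaled.

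**Figure D4:**
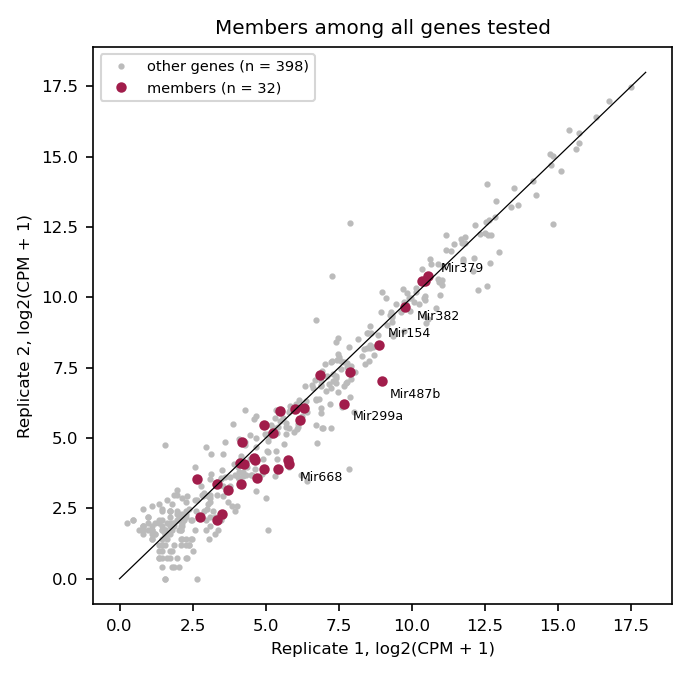
Log2(CPM + 1) in replicate 2 against replicate 1 for the 430 genes with at least 10 reads in sum, members in dark red (n = 32) and other genes in grey; the line marks equality. Mir379 and Mir382 lie near the line, and Mir487b, Mir299a and Mir668 lie below it.

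Across the 32 detected members, Pearson's r of log2(CPM + 1) between the libraries was 0.95 and Spearman's rho 0.92, a description over genes that share libraries and a locus. Log2 differences showed no order along the cluster (Spearman's rho with distance from Mir379 0.02, n = 32). Their rho with hairpin GC content was 0.31 and Pearson's r 0.30, and with the mean level rho was -0.19 and r -0.16, again as descriptions over the 32 members. Cell type markers also differed between the libraries. The 2 erythroid markers took 0.0337% of reads in replicate 1 and 0.697% in replicate 2, the 5 fibroblast markers 0.799% and 0.335% with Mir199a-1 at 0 reads, and the 9 neuronal markers 0.0344% and 0.0181%. The 8 cardiomyocyte markers took 0.519% and 0.346%, the endothelial marker Mir126a 4.29% and 6.40%, the 2 smooth muscle markers 3.03% and 3.39%, and the 5 epithelial markers 0.0549% and 0.0337%. The skeletal muscle marker Mir206 and the liver marker Mir122 each took under 0.01% in both libraries. Markers within a list did not all move the same way from replicate 1 to replicate 2. Mir143 stood at 29124 and 33002 CPM but Mir145a at 1209 and 877 CPM. Mir128-1 stood at 234 and 87.2 CPM but Mir137 at 70.1 and 80.3 CPM. Mir21a stood at 4926 and 1225 CPM but Mir199a-2 at 4.01 and 6.61 CPM. Mir199a-2 rested on 21 and 20 reads and was not called by the exact binomial test. By their names Mir199a-1 and Mir199a-2 are copies, so unique reads can miss them. The part of all these markers in the differences of the members was not tested.

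The upstream microRNAs of the same imprinted domain, from Mir770 to Mir882, gave a comparison locus of 19 annotated genes, 13 of them detected. They took 0.568% ± 0.0408 of counted reads, led by Mir127 (4051 ± 659 CPM), Mir433 (354 ± 73.7 CPM) and Mir337 (327 ± 55.4 CPM). The ratio of cluster to upstream reads was 1.36 (1.34 to 1.38) in replicate 1 and 1.17 (1.15 to 1.19) in replicate 2. No member of the Mir379 to Mir410 cluster reached the level of Mir127 in either library. Of 14 upstream genes tested, 6 were called (42.9%), where 55.3% of all genes tested were. Of these 6, 4 were higher in replicate 1 (27.9% of all genes) and 2 were lower (27.4% of all genes). The median log2 difference of the upstream genes was 0.12, where that of the members was 0.22. Whether the 2 loci differ in this was not tested.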

How the data were processed

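The deposited tables hold, per library, whole-number read counts for each microRNA gene, not normalized, which the authors made on mm10 with GENCODE M21, per the deposited readmes. Software for trimming and alignment is not given in the sources used here, nor is the counter. Of 3 unlabelled count columns, the values show the first to be unstranded, the second own-strand and the third opposite-strand, and the second was used. The 4 summary lines stayed out of library sizes (unmapped reads were 13.4% and 13.3% of all reads, reads outside microRNA genes 4.33% and 4.30%).

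CPM, exact intervals and the exact two-sided binomial test (smaller tail doubled, TMM-scaled library sizes, 0.5 reads added for log2 differences, Benjamini-Hochberg threshold 0.05) were computed with Python 3.11.15, scipy 1.17.1, R 4.3.3, edgeR 4.0.16 and DESeq2 1.42.0, and hairpin folding energies with RNAfold 2.7.2. Both tests were checked on simulated counts. With spread between replicates added, the binomial test called unchanged genes much more often than with counting error alone, so its calls show differences beyond counting error and not beyond such spread. Members whose hairpin shares 20 bases with another annotated hairpin were marked uncertain, overlapping genes aside. Mir299a and Mir299b overlap and share 21 bases, and this marking left them out.

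Described in full were members with a mean of at least 100 CPM. Named besides were called members with a mean of at least 100 reads and a 2-fold difference, members at 0, uncertain or overlapping members, and the 5 highest of the rest. Further members were named with their values known. The members and lists were chosen with earlier results of these data known. Alternatives were unstranded counts, each replicate left out, other read minimums, denominators, scalings and pseudocounts, a minimum fold of 1.5, leaving out uncertain members, and edgeR's exact test at coefficients of variation of 0.1 and 0.4. Adding Mir3072 was an alternative chosen after seeing the data.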

Additional observations from a re-analysis of the deposited data

Results flagged for a closer look

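Reads on the strand opposite to a member, in a column not used for levels, exceeded the limit that a count of 0 allows for Mir299b alone among the 38 members. Mir299b had 1067 such reads in replicate 1 and 224 in replicate 2, and 0 on its own strand. These are the same numbers as the own-strand reads of Mir299a, which overlaps it on the plus strand. No other member had an opposite-strand read in either library.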

How the results depend on the processing

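The cluster's share of 0.715% became 0.925% with unstranded counts and 0.876% without the most abundant gene. It became 0.299% over all reads and 0.529% without members that share 20 bases. The upstream share of 0.568% became 0.732%, 0.696% and 0.238% under the first 3 of these settings. Leaving out members that share 20 bases kept Mir299a, which shares 21 bases with the overlapping Mir299b. Leaving out each replicate gave 0.699% to 0.731% for the cluster, 0.539% to 0.597% upstream, 76.0% to 85.0% for the 5 highest members and 32 detected members each time. Detected members numbered 27 to 32 under the other planned settings, and 33 with Mir3072, a setting chosen after seeing the data.

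Of 21 members called, 11 were called with edgeR's exact test at a coefficient of 0.1 and 0 at 0.4, where 1 of the 32 members and 27 of all 430 genes had an unadjusted p under 0.05. At 0.4, 1.16% of all genes were called, and in simulated counts that setting called no changed gene. Higher calls went from 13 to 9 and 0, and lower calls from 8 to 2 and 0. Over all 430 genes, 67 were higher and 56 lower at 0.1, and 2 higher and 3 lower at 0.4. Requiring a 1.5-fold difference left 14 calls, 10 higher and 4 lower, where 32.1% of all genes were called (81 higher and 57 lower). Mir382 changed sign with DESeq2 size factors (log2 0.011) and with total counts (log2 0.11). Without the filter on low counts Mir496a lost its call. The members' median log2 difference stayed above 0 in each setting tried, from 0.08 with 10 reads added to 0.36 with total counts. Over all genes tested the median was -0.05 in the main setting and 0.08 with total counts. For the 9 members with a mean of at least 100 CPM it was -0.03 in the main setting.

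In the unstranded column the 5 members with reads that overlap an annotated gene on the other strand, Mir299a, Mir380, Mir376a, Mir539 and Mir409, had 0 reads, where their own-strand reads were 6.66% and 4.10% of the cluster. The denominator of the shares was also smaller in that column. It held 3881210 and 2181944 gene reads, against 5237062 and 3026501 own-strand. No paired analysis was possible because there is 1 group. Leaving out a replicate leaves no difference to test.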

Other observations

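Mir3072, past Mir410 but still overlapping an exon of Mirg, had 33 and 20 reads, or 6.30 and 6.61 CPM, and was not called (log2 difference -0.22 by the exact binomial test, interval -1.05 to 0.68). Within the span of the cluster, 5 further annotated microRNA genes are not on the list. Gm27379 had 2 and 4 reads, and Gm25750, Gm25252, Gm44322 and Gm24321, which lie opposite Mir380, Mir376a, Mir539 and Mir409, had 0 own-strand reads in both libraries.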
